A study of Mus musculus with 7 samples.

Results

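Heparan sulfate is a long sugar chain carried by a small number of core proteins at the cell surface and in the basement membrane. The set described here holds 38 genes: the enzymes that start, extend, sulfate and edit the chain, and the syndecan, glypican and secreted core proteins that carry it. They were chosen by gene symbol from a table of 47729 Ensembl genes, and all 38 had a row. Of these, 35 had a mean of at least 10 normalized counts and were tested among 15029 genes that passed the same filter. Normalized counts are the authors' counts of reads, scaled by 1 size factor for each library.

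RNA was sequenced from surface ectoderm cut by laser from beside the eye of E12.5 mouse embryos, the tissue from which the lacrimal (tear) gland buds. The wild type group had 3 libraries (replicates 2, 3 and 4) and the miR-205 knockout group, from embryos that lack the microRNA miR-205, had 4 libraries (replicates 1 to 4). Each library came from 3 pooled embryos, so a replicate is a pool and not 1 animal; strain, allele and embryo sex are not given in the sources used here. A further wild type library, which the submitters excluded for contaminating tissue, was not analysed here.

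Synthesis of heparan sulfate begins with a tetrasaccharide linker on a serine of the core protein, after which EXT enzymes lengthen the chain and a series of sulfotransferases decorate it. The pattern of sulfates sets which growth factors bind, and FGF10 needs heparan sulfate to engage its receptor FGFR2 on epithelium. In the mouse, N-sulfation by Ndst1 is known to be required for lacrimal gland budding.

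The row of Mir205 itself was at 0 in all 7 libraries, so it does not check the labels. The libraries held between 8903523 and 12504790 recovered reads. All 14 surface ectoderm and basal epithelium markers, Krt5 and Pax6 among them, were detected in all 7 libraries, with summed levels of 38605 to 48583 normalized counts in wild type and 27017 to 43920 in knockout. The mean of each of the 14 was lower in knockout (median log2 difference -0.32). Knockout replicates 1 and 2 stood apart, with the lowest sums, 27017 and 27829. Without both libraries 6 of the 14 had higher means in knockout (median -0.05). Leaving out the libraries with the lowest sums had to raise the knockout mean of the sums, so this rise tests nothing. Markers of other cell types were present in each library too, and none of them was at 0. For neural markers, 10 of 10 had the higher mean in knockout, with sums of 2443 to 7926 in wild type and 6776 to 11762 in knockout. All 10 endothelial markers did so as well, with sums of 904 to 1117 against 1063 to 2890, as did all 8 macrophage markers, with 331 to 849.6 against 722 to 1472. Of 12 mesenchymal markers 7 had higher means, with sums of 20593 to 23975 against 22109 to 33199. Erythroid markers, 8 in number, all had lower means in knockout, with sums of 165979 to 665661 in wild type and 142492 to 354754 in knockout. In tissue of mixed makeup fewer cells of a type and less RNA per cell cannot be told apart. Differences were tested with limma-trend on log2(normalized count + 1), a scale that understates changes of weakly expressed genes, with Benjamini-Hochberg adjustment over all 15029 genes and a threshold of 0.1.

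The microRNA absent from the knockout acts through a short match to its seed, bases 2 to 8, so its mature sequence and the matches to it in messages of the set are shown with the seed and its match in capitals. A match followed by an A is an 8mer and is the stronger type; the capitals then take in that A.

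mmu-miR-205-5p: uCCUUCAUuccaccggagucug
Hs3st1 (8mer): tatgtctctataatATGAAGGAacttaac
Sulf1 (8mer): gggtgccctcttgaATGAAGGAacaggac
Xylt1 (7mer): gggggtggggcggaATGAAGGtgttaccc
Ndst4 (first 7mer): aacccagcgtctgaATGAAGGgctaatgt
Ndst4 (second 7mer): cttttgagtgatacATGAAGGtaaattta
Hs6st3 (7mer): cctgctccttttgtATGAAGGgggataag

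The mature miR-205-5p sequence is from RefSeq (GRCm38.p6, chromosome 1 from 193507503 to 193507524, minus strand), and the sites are from the longest 3′ UTR that GENCODE M21 gives each gene, on GRCm38. Of the 38 genes 5 carried a match to ATGAAGG there (13.2%), 2 of which (Ndst4 and Hs6st3) were not tested. Among tested genes the match was present in 3 of the 35 (8.57%) and in 1680 of all 13541 with a 3′ UTR (12.4%). An 8mer, ATGAAGGA, was present in 2 of the 35 (5.71%) and in 603 of the 13541 (4.45%). In Hs3st1 the match lies on chromosome 5 from 39614111 to 39614117 (minus), 246 bases into a 3′ UTR of 428 bases. In Sulf1 it lies on chromosome 1 from 12860435 to 12860441 on the plus strand, and in Xylt1 on chromosome 7 from 117671824 to 117671830 on the plus strand. The matches of Ndst4 (chromosome 3, from 125725153 to 125725159 and from 125725821 to 125725827) and Hs6st3 (chromosome 14, from 119869616 to 119869622) belong to messages that were barely present, as described below. Not shown is another type of match, TGAAGGA without an A before it. It was present in the 3′ UTRs of B4galt7, Ext1, Extl3, Ndst1, Ndst3, Ndst4, Hs2st1, Hs3st3b1 and Gpc2. How common it is among all genes was not counted. A match of either type is a stretch of letters and not a proven site of action.

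In wild type ectoderm the 4 most abundant messages of the set, Gpc3, Sdc1, Sdc4 and Gpc1, encoded core proteins. Other core proteins lay lower in the order, with Sdc3 at rank 16, Hspg2 at 29 and Gpc5 last at 38. Levels are compared between genes as normalized counts per kilobase of annotated exon. The glypican Gpc3, a membrane-anchored core protein that restrains growth and Hedgehog signalling, stood first at 1240 ± 114 per kilobase (SD, n = 3). Sdc1, the main syndecan of epithelia, followed at 1035 ± 59.4, and the ranges of both genes did not overlap. Sdc4 had 407 ± 127, Gpc1 396 ± 39.5 and Sulf2 341 ± 35.2 per kilobase, and neighbours among these overlapped. Of 37 neighbouring pairs in the order of the 38 genes, 31 had overlapping wild type libraries, so the order is firm only at its steps. Such steps separated Gpc3 from Sdc1, Sdc1 from Sdc4, and Sulf2 from Gpc4. Lower down, they separated Extl3 from B3galt6, Sulf1 from Hs6st2, and Hspg2 from Extl1. Of the 38 genes 25 exceeded the median of the tested genes, 51.6 per kilobase.

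**Figure D1:**
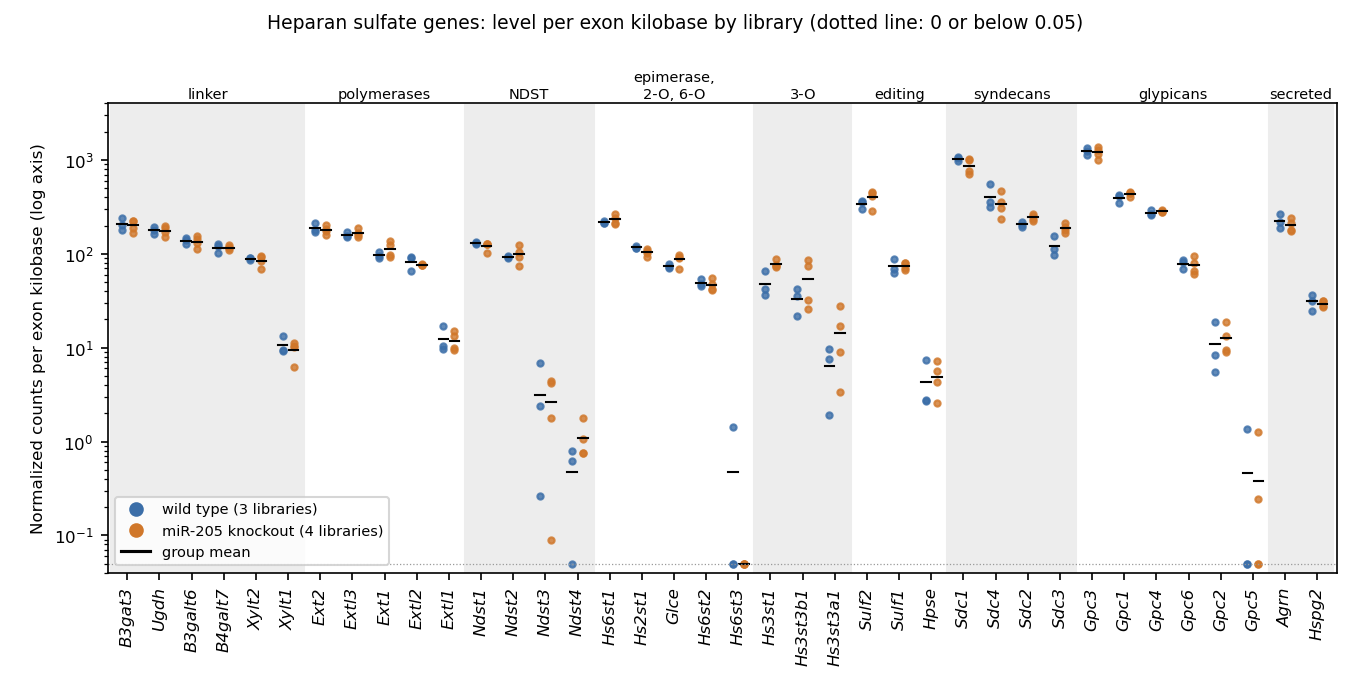
Levels of the 38 genes by role, in normalized counts per exon kilobase on a log axis, with a point for each of 3 wild type (blue) and 4 knockout (orange) libraries and a bar at the group mean. Gpc3 and Sdc1 lie near 1000 per kilobase in both groups, while Hs6st3, Gpc5 and Ndst4 lie near or below 1.

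Several families had a member that was nearly silent. Hs6st3, a 6-O-sulfotransferase, had 2 reads in wild type replicate 2 and 0 in the other 6 libraries, where a count of 0 allows up to 2.58 to 3.38 normalized counts. Gpc5 had 5 reads in wild type replicate 2, 5 in knockout replicate 1, 1 in knockout replicate 2 and 0 elsewhere. Ndst4 had 0 to 9.35 normalized counts in wild type and 8.75 to 20.9 in knockout. These 3 genes fell below the filter and were not tested. Ndst3 passed it but ranged from 0.875 normalized counts in knockout replicate 4 to 67.1 in wild type replicate 2, so its 95% interval of the log2 difference, -3.20 to 2.86, covers almost any outcome. Intervals and limits from counts of 0 cover counting error only.

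In the knockout the mean levels of most genes of the set lay near those of wild type. By limma-trend with a threshold of 0.1 on the adjusted p, 0 of the 35 passed, as did 0% of all 15029 genes. At an unadjusted p under 0.05 3 genes of the set stood, Sdc3, Hs3st1 and Sdc2, all higher in knockout and all 3 without overlap of the groups, where 5.44% of all genes were higher and 4.34% lower at that p. Groups did not overlap for 4 of the 35, these 3 and Hs2st1 (9.92% of all genes). By edgeR's quasi-likelihood test on recovered reads 0 of the 35 passed 0.1 (0% of all genes), and by DESeq2 1, Sdc3, did (1.52% of all genes). Higher means in knockout were seen for 17 and lower for 18 of the 35, against 51.7% higher over all genes. The median log2 difference was -0.03, against 0.01 over all genes, and the median size of a difference was 0.11, against 0.18. For 21 of the 35 genes the 95% interval lay within 0.5 on the log2 scale on either side of 0. The 24 tested enzymes were divided evenly, with 12 higher, and of the 11 tested core proteins 5 were higher.

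**Figure D2:**
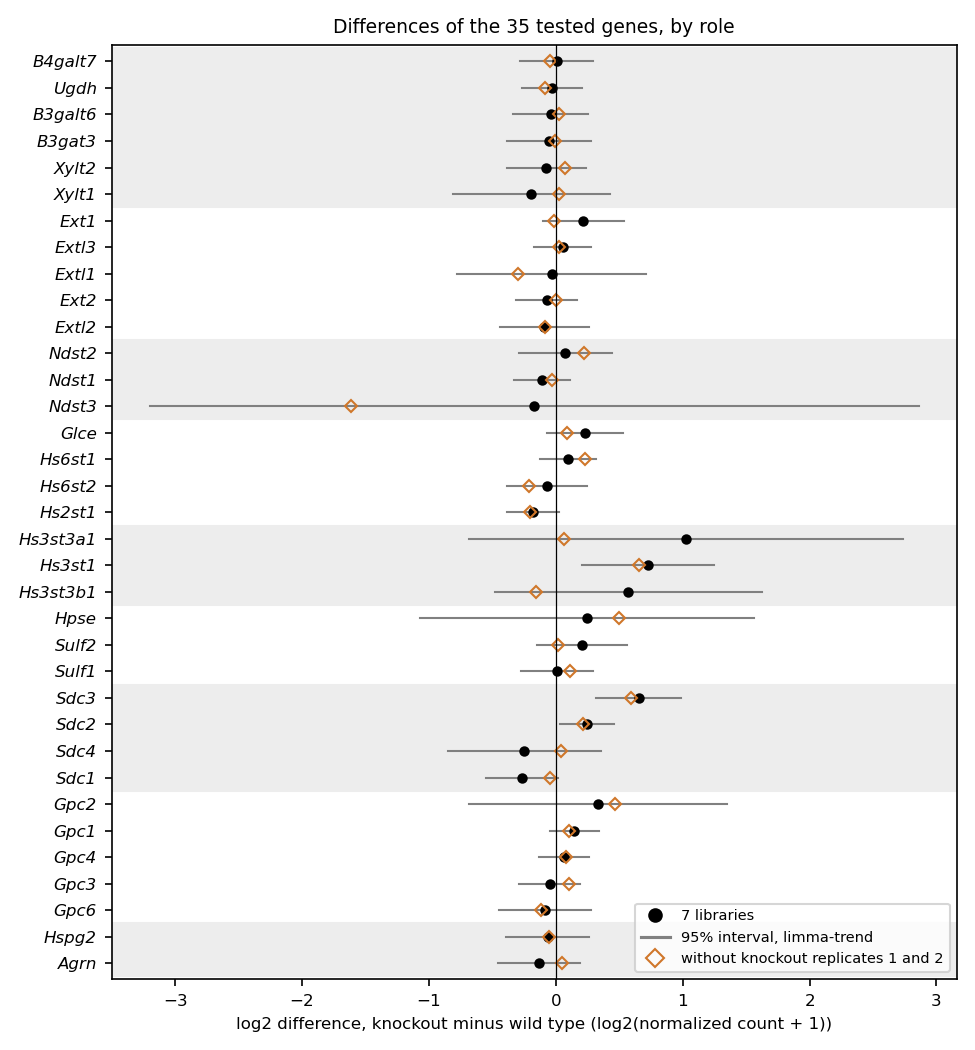
Difference in log2(normalized count + 1), knockout minus wild type, for the 35 tested genes by role, with the limma-trend estimate over 7 libraries (black), its 95% interval (grey) and the estimate without knockout replicates 1 and 2 (open diamonds). The intervals of Sdc3, Sdc2 and Hs3st1 do not reach 0; Hs3st3b1 moves from 0.57 to -0.16 when both knockout libraries are left out.

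The linker enzymes differed little between the groups. Xylt2, which attaches the first xylose together with Xylt1, had 359, 340 and 358 normalized counts across the wild type libraries against 276, 330, 366 and 375 in knockout replicates 1 to 4. The knockout libraries surrounded the wild type ones (log2 difference -0.07, SE 0.14; adjusted p = 0.877 by limma-trend). Xylt1 was less abundant per kilobase, at 10.7 ± 2.28 against 88.5 ± 2.75 for Xylt2 (SD, n = 3). It had 128, 88.6 and 91.7 normalized counts across the wild type libraries against 97.0, 59.4, 107 and 99.8 across the knockout ones, with overlapping groups (log2 difference -0.19, SE 0.28). Its 3′ UTR carries a seed match of miR-205, shown above. B3gat3, which closes the linker with glucuronic acid and was the most abundant linker enzyme per kilobase (209 ± 31.8), had 629, 466 and 526 normalized counts across the wild type libraries against 430, 583, 486 and 584 across the knockout ones. B4galt7 and B3galt6, which add the linker's galactoses, and Ugdh, which makes the precursor UDP-glucuronic acid, had log2 differences between -0.04 and 0.01. All 3 had overlapping groups.

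Among the chain polymerases, Ext1 and Ext2, the subunits of the elongating enzyme, were not equally abundant, and Ext2 had the higher level per kilobase. Ext2 had 1255, 1324 and 1573 normalized counts across the wild type libraries against 1345, 1160, 1480 and 1279 across the knockout ones (log2 difference -0.07, SE 0.11). Ext1 had 836, 728 and 767 across the wild type libraries against 1009, 1115, 784 and 752 across the knockout ones (log2 difference 0.22, SE 0.14; adjusted p = 0.625 by limma-trend). Its highest libraries were knockout replicates 1 and 2, and without them the difference was -0.02. Per kilobase the ratio of Ext1 to Ext2 was 0.515 ± 0.082 (SD over 3 wild type libraries) against 0.642 ± 0.175 (SD over 4 knockout ones). Extl3, which adds the first N-acetylglucosamine and so commits the linker to heparan sulfate, had a difference of 0.06 with a 95% interval of -0.17 to 0.28. Extl2 and the weakly expressed Extl1 had -0.09 and -0.03.

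Among messages of the N-sulfation enzymes, which remove acetyl groups and put sulfates in their place, Ndst1 and Ndst2 held nearly all counts. Per kilobase, Ndst3 took at most 2.98% and Ndst4 at most 0.844% of the family's counts in any library. Ndst1 had 1055, 1070 and 1100 normalized counts across the wild type libraries against 1058, 840, 1065 and 1042 across the knockout ones (log2 difference -0.11, SE 0.10; 95% interval -0.33 to 0.11). Only knockout replicate 2 lay clearly apart, on the low side. Ndst2 had a mean of 421 ± 13.7 (SD over 3 wild type libraries) against 451 ± 95.5 (SD over 4 knockout ones), with overlapping groups.

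Of the enzymes that follow N-sulfation, Hs2st1, the single 2-O-sulfotransferase, was the one gene of the set with all knockout libraries below all wild type libraries (5.22% of all genes). It had 997, 939 and 955 normalized counts across the wild type libraries against 889, 834, 759 and 927 across the knockout ones. The gap between the groups was narrow, from 927 to 939. The log2 difference was -0.18 (SE 0.09; 95% interval -0.39 to 0.03; adjusted p = 0.549 by limma-trend). It was -0.18 within the 4 libraries over 10000000 reads and -0.21 within the 3 others, 1 of them wild type. Glce, the epimerase that turns glucuronic into iduronic acid, had 485, 497 and 532 across the wild type libraries against 637, 668, 619 and 466 across the knockout ones. Its 3 highest libraries and its lowest were all knockout (log2 difference 0.23, SE 0.14), and without knockout replicates 1 and 2 the difference was 0.09. Hs6st1, the most abundant sulfotransferase per kilobase (216 ± 6.01), had 1175, 1236 and 1182 across the wild type libraries against 1147, 1188, 1330 and 1485 across the knockout ones (log2 difference 0.10, SE 0.10). Without knockout replicates 1 and 2, Hs6st1 was 0.23 higher. Of its exon bases 8.07% lie opposite exons of Gm37335. Hs6st2, present at 49.0 ± 4.97 per kilobase, had -0.07.

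The 3-O-sulfotransferases add the rarest sulfate, and all 3 had higher means in knockout. Hs3st1, best known for making the antithrombin-binding sequence of heparin, lies on chromosome 5 from 39613935 to 39755475, read from the minus strand (ENSMUSG00000051022). It had 146, 80.8 and 93.5 normalized counts in wild type replicates 2, 3 and 4, against 166, 195, 168 and 160 in knockout replicates 1 to 4. All 4 knockout libraries lay above all 3 wild type libraries (4.7% of all genes), though wild type replicate 2 came close. The log2 difference was 0.72 (SE 0.23; 95% interval 0.20 to 1.25; unadjusted p = 0.0114, adjusted p = 0.431 by limma-trend). Its message carries the 8mer shown above. The 8mer of Sulf1 went with no such difference. Within libraries over 10000000 reads the difference of Hs3st1 was 0.91 and within the others 0.29, and without knockout replicates 1 and 2 it was 0.66. The neuronal marker sum followed the same order within wild type, at 7926, 2443 and 4372 in replicates 2, 3 and 4. So did the macrophage sum, at 849.6, 331 and 489, and the endothelial sum, at 1117, 904 and 1024. Within knockout none of these sums had the full order of Hs3st1, though replicate 4 was lowest for each of them and for Hs3st1. The part of such cells in the level of Hs3st1 was not tested.

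The other pair, Hs3st3b1 and Hs3st3a1, both lie on chromosome 11 and make a differently placed 3-O-sulfate, which in the mouse salivary gland is known to sharpen the response of FGFR2 to FGF10. They are described by library because their values went together, a choice made after seeing them. Hs3st3b1 had 173, 209 and 108 normalized counts across the wild type libraries against 420, 363, 156 and 127 across the knockout ones. Hs3st3a1 had 37.8, 30.1 and 7.48 across the wild type libraries against 108, 67.1, 35.4 and 13.1 across the knockout ones. Both were highest in knockout replicates 1 and 2, and both groups overlapped. The log2 differences were 0.57 (SE 0.46) and 1.03 (SE 0.76) over 7 libraries, and -0.16 and 0.06 without those replicates. The same replicates had the highest mesenchymal sums, 33199 and 29288, and the highest endothelial sums, 2179 and 2890.0. The part of mesenchyme or vessels in these messages was not tested. The genes also share 6.28% and 7.86% of their 100-base stretches with each other, and 32.9% of the exon bases of Hs3st3a1 lie opposite the exons of F930015N05Rik, so their counts are uncertain.

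The extracellular editors were led by Sulf2, which removes 6-O-sulfates from finished chains. Sulf2 had 2075, 1772 and 2166 normalized counts across the wild type libraries against 2675, 2592, 1692 and 2416 across the knockout ones. The groups overlapped through knockout replicate 3, the lowest library of all (log2 difference 0.21, SE 0.16; 95% interval -0.14 to 0.56; adjusted p = 0.668 by limma-trend). Without knockout replicates 1 and 2 the difference was 0.02. Sulf1, with the same activity and an 8mer for miR-205, had 999.7 normalized counts in wild type replicate 2, 714 and 783 in replicates 3 and 4, and 753 to 893 in knockout. Its means were 832 ± 149 (SD, n = 3) and 831 ± 71.5 (SD, n = 4), and the 95% interval of its log2 difference was -0.27 to 0.29. Hpse, the heparanase that cuts the chain, was weak, at 9.46 to 26.2 normalized counts in wild type and 9.03 to 25.4 in knockout.

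The syndecans are transmembrane core proteins, and 2 of the 4 had higher levels in each knockout library than in any wild type one (4.7% of all genes). Sdc3, the syndecan typical of neural tissue, had the smallest p of the set and lies on chromosome 4 from 130792537 to 130826319 on the plus strand (ENSMUSG00000025743). It had 925, 585 and 669 normalized counts in wild type replicates 2, 3 and 4, against 1079, 1263, 999 and 1161 in knockout replicates 1 to 4. The groups did not overlap, and the gap between them ran from 925 to 999. The log2 difference was 0.65 (SE 0.15; 95% interval 0.32 to 0.99), with an unadjusted p = 0.00154 and an adjusted p = 0.312 (limma-trend). Its p ranked 66 among the 15029 genes. DESeq2 on recovered reads gave an adjusted p of 0.0262, and in the authors' deposited table, where 2.83% of 11933 genes passed 0.1, Sdc3 was the single gene of the set that passed (log2 fold change 0.61, adjusted p 0.0186).

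How far Sdc3 stood out depended on which libraries were included. Wild type replicate 2 was the highest wild type library for Sdc3 and replicate 3 the lowest. Leaving out the first could thus only widen the difference, and leaving out the second only narrow it. Without wild type replicate 2 the log2 difference was 0.84 and the adjusted p 0.0546 by limma-trend. In that setting 84 of all 15029 genes passed 0.1. Without wild type replicate 3 the log2 difference was 0.51 and the adjusted p 0.708 by limma-trend. The difference was 0.78 within the 4 libraries over 10000000 reads and 0.33 within the 3 others, 1 of them wild type. Without knockout replicates 1 and 2 it was 0.59. Among wild type libraries Sdc3 had the order of the neuronal marker sum, highest in replicate 2 and lowest in replicate 3. The macrophage sum shared that order, at 849.6, 331 and 489 in wild type replicates 2, 3 and 4, as did the endothelial sum, at 1117, 904 and 1024. Among knockout libraries the order of the neuronal markers depended on the measure, and by neither was it the order of Sdc3. Knockout replicate 3, the lowest for Sdc3, had the highest neuronal sum, 11762, but by the mean log2 of the same 10 markers replicate 2, the highest for Sdc3, was also highest, at 9.39. Replicates 1, 3 and 4 had 9.34, 9.06 and 8.58 on that scale. Knockout replicate 4, behind only replicate 2 for Sdc3, was lowest by both measures, with a neuronal sum of 6776. The part of neural tissue, macrophages or vessels in the level of Sdc3 was not tested. Its 3′ UTR of 3510 bases holds no match to ATGAAGG, and 7.73% of its exon bases lie opposite exons of other genes.

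**Figure D3:**
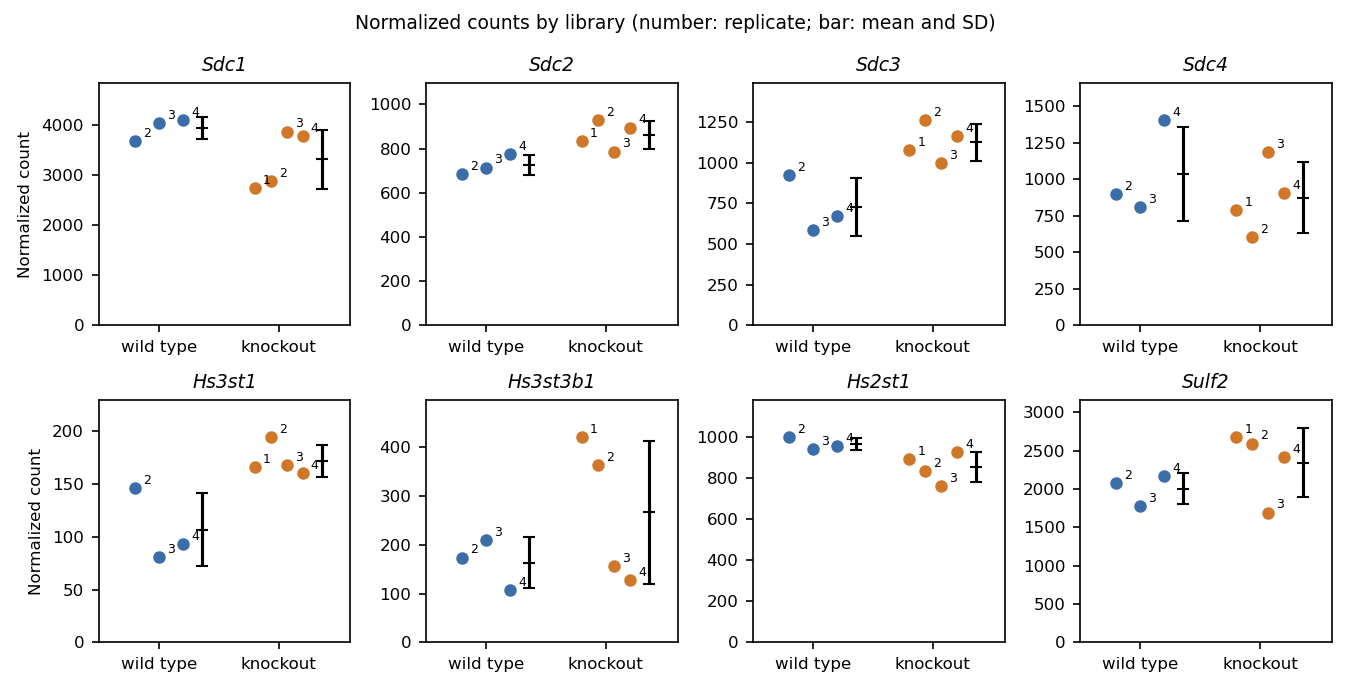
Normalized counts of the 4 syndecans and of 4 enzymes in each library, with the replicate number beside each point and a bar for the group mean and SD. Knockout libraries lie above all wild type libraries for Sdc2, Sdc3 and Hs3st1 and below them for Hs2st1; Hs3st3b1 is highest in knockout replicates 1 and 2.

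Sdc2, found largely on mesenchymal cells, had 686, 714 and 775 normalized counts across the wild type libraries against 834, 930, 787 and 895 across the knockout ones. Again the groups did not overlap, by a margin of 775 to 787. The log2 difference was 0.25 (SE 0.09; 95% interval 0.04 to 0.46; unadjusted p = 0.0263, adjusted p = 0.457 by limma-trend), and it was 0.21 without knockout replicates 1 and 2. Within libraries over 10000000 reads it was 0.17 and within the others 0.36. Sdc1 had 3681, 4040 and 4100 across the wild type libraries against 2732, 2876, 3866 and 3780 across the knockout ones (log2 difference -0.27, SE 0.13; adjusted p = 0.536 by limma-trend). Its low values were those of knockout replicates 1 and 2, the libraries with the lowest ectoderm marker sums, and without them the difference was -0.04. The part of tissue makeup in the level of Sdc1 was not tested. Sdc4, a syndecan of cell-matrix contacts, ranged from 806 to 1406 in wild type and from 605 to 1185 in knockout.

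Per kilobase, Sdc1 made up 58.7 ± 4.20% of syndecan counts (SD over 3 wild type libraries) against 52.7 ± 2.56% (SD over 4 knockout ones). The share of Sdc3 was 9.26%, 5.83% and 5.70% across the wild type libraries against 12.47%, 14.4%, 8.92% and 10.8% across the knockout ones, so that knockout replicate 3 fell below wild type replicate 2. The ratio of Sdc3 to Sdc1 was 0.160, 0.092 and 0.104 across the wild type libraries against 0.251, 0.279, 0.164 and 0.195 across the knockout ones. Its groups did not overlap, by a narrow margin of 0.160 to 0.164. Sdc3 alone already did not overlap, and Sdc1 had the lower mean in knockout, so the ratio is not a separate result. How often ratios of other genes fail to overlap was not counted. Summed over the family, counts per kilobase were 1768 ± 166 in wild type and 1644 ± 220 in knockout.

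**Figure D4:**
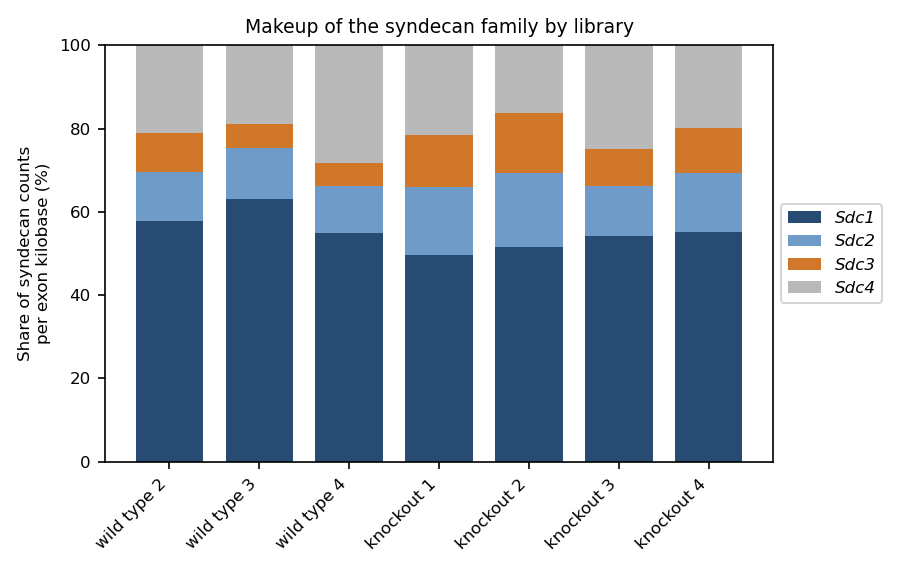
Share of each syndecan in the family's normalized counts per exon kilobase, in percent, for each of the 7 libraries. Sdc1 holds between 49.7% and 63.2% of each bar, and Sdc3 between 5.70% and 14.4%.

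The glypicans are tied to the membrane by a lipid anchor, and all 5 tested had overlapping groups. Gpc3 had 3008, 3386 and 3615 normalized counts across the wild type libraries against 3097, 2720, 3440 and 3701 across the knockout ones (log2 difference -0.05; 95% interval -0.29 to 0.19). Gpc4 had 698, 686 and 776 across the wild type libraries against 765, 732, 781 and 737 across the knockout ones (0.07; 95% interval -0.13 to 0.26). Its residual SD was smaller than that of all but 3.67% of tested genes. Gpc1 had 2134, 1811 and 2188 across the wild type libraries against 2311, 2347, 2056 and 2321 across the knockout ones (0.15, SE 0.09; adjusted p = 0.579 by limma-trend). In 10 of 12 pairs of a knockout and a wild type library Gpc1 was higher in knockout. Of the exon bases of Gpc1, 18.9% lie opposite exons of Ankmy1, so reads of both genes may be mixed. Gpc6 had overlapping groups (-0.08). Gpc2 ranged from 23.4 to 79.3 in wild type and from 38.4 to 79.6 in knockout, and 55.6% of its exon bases are shared with the read-through transcript Gm43720, so its counts are uncertain.

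The secreted core proteins of the basement membrane had slightly lower means in knockout. Agrn (agrin) had 1736, 2011 and 2445 normalized counts across the wild type libraries against 1663, 1613, 1987 and 2254 across the knockout ones (log2 difference -0.13, SE 0.14; adjusted p = 0.768 by limma-trend). The lowest libraries were again knockout replicates 1 and 2, and without them the difference was 0.05. Hspg2 (perlecan) had 445 ± 86.7 (SD over 3 wild type libraries) against 421 ± 32.0 (SD over 4 knockout ones), a log2 difference of -0.06.

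Knockout replicates 1 and 2 were the highest libraries for 5 of the 35 genes, Ext1, Glce, Hs3st3a1, Hs3st3b1 and Sulf2. They were the lowest for 4, Xylt2, Sdc1, Sdc4 and Agrn. Over all 15029 genes the same was true of 10.3% and 9.90%. For such genes the direction in which leaving out both libraries moves the difference is fixed in advance. Without both libraries 20 of the 35 genes had higher and 15 lower means in knockout, where 52.7% of all genes were higher. At an unadjusted p under 0.05 by limma-trend 2 of the 35 then stood, Sdc3 and Hs6st1, a share near the 6.26% of all genes. Residual SDs of log2 values had a median of 0.20 over the 35 genes and of 0.25 over all genes.

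**Figure D5:**
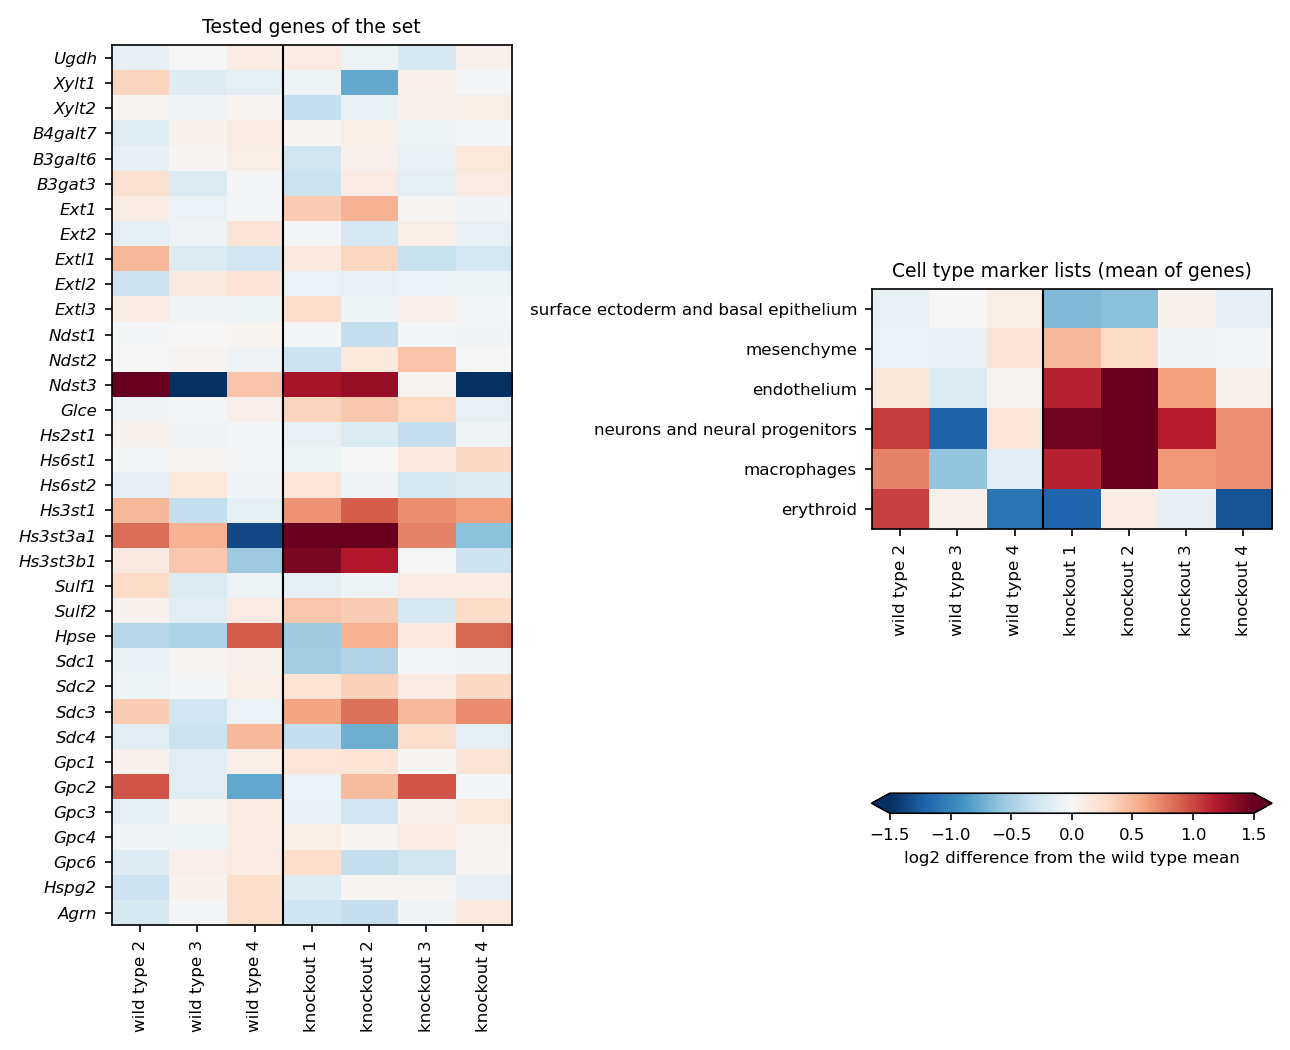
Left, log2(normalized count + 1) of the 35 tested genes in each library, relative to the wild type mean; right, the same for the mean of each cell type marker list. Hs3st3a1, Hs3st3b1 and Ext1 are highest, and Sdc1 lowest, in knockout replicates 1 and 2, where the ectoderm list is also lowest.

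Other genes of glycosaminoglycan metabolism were counted from lists chosen with earlier results known. Of 13 tested further heparan sulfate enzymes and cofactors 5 had higher means in knockout (median log2 difference -0.02), and none had an unadjusted p under 0.05 by limma-trend. Uxs1, which makes UDP-xylose for the linker, had 231 ± 22.9 normalized counts (SD over 3 wild type libraries) against 195 ± 19.0 (SD over 4 knockout ones). Slc26a2, a sulfate transporter, had 499 ± 68.5 and 454 ± 36.7. Of 10 lysosomal enzymes and activators of heparan sulfate breakdown 8 had higher means (median 0.13), with Gusb, a glucuronidase, at 345 ± 81.6 and 445 ± 94.0 and Sumf1, the activator of sulfatases, at 285 ± 32.4 and 236 ± 54.2.

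The enzymes of the sister chains, chondroitin and dermatan sulfate, had higher means in knockout for 14 of 15 tested genes, with a median log2 difference of 0.20 against 0.01 over all genes. Chst14, which sulfates dermatan, had 383, 377 and 388 normalized counts across the wild type libraries against 414, 521, 438 and 554 across the knockout ones. It did not overlap between groups (log2 difference 0.32, SE 0.13; adjusted p = 0.475 by limma-trend). Dse, the epimerase of dermatan, had 323, 337 and 448 across the wild type libraries against 774, 532, 369 and 473 across the knockout ones (0.50, SE 0.23). Without knockout replicates 1 and 2, 11 of the 15 had higher means (median 0.19). With all libraries included, none of the 15 passed 0.1 by limma-trend, and 1, Chst14, had an unadjusted p under 0.05 (9.77% of all genes). For 3 of the 15, Chst14 among them, all knockout libraries lay above all wild type libraries (4.7% of all genes).

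Of 14 tested other proteoglycan core proteins 8 had higher means. Cspg4 (NG2), a marker of pericytes and glial precursors, had 45.2, 41.3 and 38.4 normalized counts across the wild type libraries against 134, 81.4, 50.4 and 89.3 across the knockout ones, with no overlap (log2 difference 1.00, SE 0.35; adjusted p = 0.442 by limma-trend). Versican, Vcan, was lower in all knockout libraries, at 2381, 2464 and 2680 against 2208, 2346, 2115 and 2207 (-0.18, SE 0.07, adjusted p = 0.471 by limma-trend). Of all genes 4.7% had all knockout libraries above all wild type libraries, and 5.22% had them below.

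The FGF pathway, which reads heparan sulfate, had higher means for 17 of 26 tested genes (median log2 difference 0.11), and 0 passed 0.1 by limma-trend, while 3 had an unadjusted p under 0.05 (9.77% of all genes). Fgf10, the mesenchymal ligand of gland budding, was weak in both groups, with 40.3, 33.5 and 14.03 normalized counts across the wild type libraries against 48.5, 44.0, 23.9 and 35.01 across the knockout ones (0.44, SE 0.46). Its epithelial receptor Fgfr2 had 2748, 2806 and 3233 across the wild type libraries against 2298, 2306, 2913 and 2995 across the knockout ones (-0.16, SE 0.11; adjusted p = 0.641 by limma-trend), low in the replicates that were low in ectoderm markers. The part of tissue makeup in the level of Fgfr2 was not tested. Ptpn11, which encodes the phosphatase SHP2 of this pathway, had 847, 794 and 911 across the wild type libraries against 810.0, 711, 708 and 641 across the knockout ones (-0.25, SE 0.10). Fgfr4 had 4, 0 and 1 reads in wild type and 23, 45, 15 and 19 in knockout (limma-trend adjusted p = 0.325, DESeq2 adjusted p = 0.0349). Krt5 and Pax6, used by the submitters to judge libraries, had 7221 ± 994 against 5801 ± 1336 and 1934 ± 248 against 1295 ± 425.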

How the data were processed

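The submitters' processing notes name TopHat2 2.0.9, mouse GRCm38, HTSeq and DESeq2; reads were counted in intersection-strict mode, per the series' design text. The signal values are the authors' normalized counts; the log2 values are fold changes computed by the authors; the p-value columns are the authors' deposited p and adjusted p. No source used here gives the strand setting, and reads of a gene and its antisense partner may be mixed.

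The smallest value above 0 in a library was taken as 1 read, and 100% of values above 0 were then whole within 0.01 read. Because the values are normalized counts, log2(normalized count + 1) was tested by limma-trend with the robust option (limma 3.58.1 in R 4.3.3) for genes with a mean of at least 10. Alternatives were edgeR 4.0.16 and DESeq2 1.42.0 on recovered reads, pseudocounts of 0.5 and 5, other filters, another scaling and left-out libraries. The fit was tested on simulated data. Nothing says that pools came from separate litters, so p-values measure the spread between these libraries. Exon lengths and 3′ UTRs are from GENCODE M21; levels per kilobase rest on all annotated exons. Shared sequence was searched with stretches of 100 bases in GENCODE transcripts.

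Named in each role were the genes with the smallest p (up to 2) and the highest level, and in each other list the 2 with the smallest p, with Fgf10, Fgfr2, Pax6 and Krt5; all 38 genes are accounted for. The genes and lists were chosen with earlier results of these data known.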

Additional observations from a re-analysis of the deposited data

Results flagged for a closer look

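In 3 of the 35 tested genes 1 of the 4 knockout libraries stood apart from the other 3 on the log2 scale, by a gap that exceeded Dixon's 95% critical share of the group's range. Chance alone flags about 1 in 20 groups. Ndst1 had 840 normalized counts in knockout replicate 2 and 1042 to 1065 in the others (gap of 0.909 of the range). Gpc1 had 2056 in knockout replicate 3 and 2311 to 2347 in the others (0.882). Xylt1 had 59.4 in knockout replicate 2 and 97.0 to 107 in the others (0.834).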

How the results depend on the processing

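Genes past an adjusted p of 0.1 numbered 0 by limma-trend and by edgeR and 223 by DESeq2 on recovered reads. They numbered 2 among genes above 10 in each library, 3 with the replicate block, 3 without knockout replicates 1 and 2, 38 within libraries over 10000000 reads, and 0 to 84 when 1 library was left out, with 84 without wild type replicate 2. Of the 35 genes of the set 1 passed by DESeq2 and 0 to 1 when 1 library was left out, in both cases Sdc3, and 0 passed under the other settings. The adjusted p of Sdc3 ranged from 0.0262 to 0.716. The cause was not tested. Same-numbered libraries correlated by 0.0965, 0.111 and -0.0110 in their deviations, and differently numbered ones by -0.215 to 0.157. So few pairs cannot decide whether the numbers pair libraries. The block called none of the 35.

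Of 662 log2 differences under 19 settings 596 kept their direction and 66 turned. The other filters and the fit without the robust option leave a difference as it was, so those could not turn. The replicate block gave the same differences as leaving out knockout replicate 1. Under no setting did 12 genes turn, Sdc3, Sdc2, Hs3st1 and Hs2st1 among them. The groups of these named genes did not overlap, so leaving out libraries could not turn them. Of the 66, 11 were within the 3 libraries under 10000000 reads, which allow no test: B3galt6 0.018, Extl2 0.22, Extl3 -0.019, Gpc2 -0.75, Gpc6 0.15, Hs6st1 -0.0096, Hs6st2 0.19, Hspg2 0.23, Ndst2 -0.079, Sulf1 -0.37 and Ugdh 0.15. The others follow. Without knockout replicates 1 and 2 they were Agrn 0.050, B3galt6 0.027, B4galt7 -0.047, Ext1 -0.015, Gpc3 0.10, Hs3st3b1 -0.16, Sdc4 0.043, Xylt1 0.027 and Xylt2 0.072. Within libraries over 10000000 reads they were B3gat3 0.11, B4galt7 -0.14, Gpc3 0.028, Hs3st3b1 -0.089, Xylt1 0.20 and Xylt2 0.086. With the replicate block they were B3galt6 0.039, B3gat3 0.034, B4galt7 -0.00029, Extl3 -0.011 and Xylt2 0.017. With TMM scaling they were B4galt7 -0.0049 and Sulf1 -0.0013, by edgeR B4galt7 -0.011 and Sulf1 -0.0095, and by DESeq2 B4galt7 -0.0017. Leaving out 1 library gave ranges of -0.11 to 0.039 for B3galt6, -0.15 to 0.061 for B3gat3, -0.084 to 0.070 for B4galt7, -0.14 to 0.024 for Ext2, -0.18 to 0.22 for Extl1 and -0.25 to 0.0043 for Extl2. They were -0.011 to 0.11 for Extl3, -0.056 to 0.80 for Gpc2, -0.12 to 0.033 for Gpc3, -0.20 to 0.0095 for Gpc6, -0.15 to 0.0074 for Hs6st2 and -0.22 to 0.066 for Hspg2. They were -0.047 to 0.20 for Ndst2, -1.34 to 0.86 for Ndst3, -0.094 to 0.15 for Sulf1, -0.093 to 0.040 for Ugdh and -0.13 to 0.017 for Xylt2.

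With 3 wild type libraries, 1 library can turn a small difference, and Ndst3, with a residual SD of 2.15 on the log2 scale, has no usable interval.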
